A study of Rattus norvegicus with 30 samples.

Results

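Glutamate, the main excitatory transmitter of the spinal cord, was followed here through 4 genes: the vesicular transporters Slc17a6 and Slc17a7 and the NMDA receptor subunits Grin1 and Grin2b. They were chosen by their rat Ensembl identifiers, ENSRNOG00000016147, ENSRNOG00000020650, ENSRNOG00000011726 and ENSRNOG00000008766 in that order, and make up 4 of the 32545 identifiers in each count table. All 4 passed the filter on low counts, which kept 14801 genes. The files pair no identifier with a name, so the 4 names rest on the list that chose them, and other glutamate genes and markers of cell types were not analysed here.

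The libraries came from adult female Long Evans rats (Crl:LE, over 10 weeks old) with a thoracic spinal cord injury (SCI) or sham surgery. The tissue, intermediate gray matter of laminae IV to VII from the left and right cord, was cut at vertebral level C3, above the lesion, where hindlimb corticospinal fibres sprout according to the series title. Sham rats were killed 1 week or 12 weeks after surgery and injured rats at 1, 3, 6 or 12 weeks, with 5 rats and 5 libraries in each of the 6 groups. The design text says that the 5 rats of a group were picked on RNA quality and quantity from a larger group, after rats with an inadequate lesion had been left out.

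Library totals ran from 6459555 to 37410793 counts. The library titled as sham 1 week replicate 1 names an injury in its surgery and source labels. It was grouped by its title as sham, and fold changes that use that group are also given without it. Levels are CPM, counts scaled to a common library size after TMM adjustment between libraries.

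Neurons that release glutamate load it into synaptic vesicles with a vesicular glutamate transporter. Slc17a6 encodes VGLUT2, the transporter of most excitatory neurons whose cell bodies lie in the spinal cord. Slc17a7 encodes VGLUT1, which fills the terminals of corticospinal and many large sensory axons, whose cell bodies lie in the brain and in the dorsal root ganglia. The NMDA receptor is a glutamate-gated, calcium-permeable channel in which the obligatory subunit GluN1, from Grin1, assembles with a GluN2 subunit such as GluN2B, from Grin2b, which sets much of the channel's kinetics and signalling. RNA from bulk tissue comes mostly from cell bodies, and in such tissue fewer cells of a type and less RNA per cell cannot be told apart.

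None of the 4 genes passed the test in any of the 9 comparisons made (edgeR quasi-likelihood test, Benjamini-Hochberg adjusted over all 14801 genes, threshold 0.05). This is the usual outcome, as 0% to 0.358% of all genes passed in these comparisons. The lowest and highest group means differed 1.09-fold for Slc17a6 and for Grin1 and 1.19-fold for Grin2b. For Slc17a6, Grin1 and Grin2b the 95% confidence intervals kept the fold change after injury at each week within 0.844 to 1.26. Slc17a7 was close to the limit of detection and its intervals for the same fold changes reached from 0.384 to 2.01. In sham 12 weeks against sham 1 week Grin2b was 0.856-fold, with an interval of 0.741 to 0.99 that leaves out 1 (edgeR adjusted p = 0.572). In that comparison 8.24% of all genes had an unadjusted p under 0.05 (edgeR). Without sham 1 week replicate 1, whose labels conflict, the unadjusted p of Grin2b was 0.0885 (edgeR). For Grin1 the 2 sham groups gave an exact permutation p of 0.0159, unadjusted (edgeR adjusted p = 0.686). It was the smallest p of all permutation tests run on the 4 genes, and no share over all genes stands beside it. Across rats, Grin1 and Grin2b varied together, with a Pearson r of 0.601 over 30 rats. The r of Slc17a6 was 0.05 with Grin1 and -0.247 with Grin2b, and the difference between these correlations was not tested.

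Slc17a6 was counted 1936 to 11551 times per library. Its level was 314, 289, 233, 372 and 319 CPM in the 5 sham rats of 1 week and 335, 321, 330, 317 and 340 CPM in those of 12 weeks. The rats of sham 1 week included both the lowest (replicate 3) and the highest (replicate 4) of all 30, whereas the 12-week sham rats lay close together. In injured rats the level was 340, 350, 319, 315 and 346 CPM at 1 week, 323, 303, 316, 301 and 324 CPM at 3 weeks, 308, 311, 270, 340 and 298 CPM at 6 weeks, and 325, 290, 338, 313 and 343 CPM at 12 weeks. Every one of the 15 pairs of groups overlapped, which is the usual outcome. In the pairs where all genes were counted, 0.946% to 3.51% of genes showed no overlap.

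The group means of Slc17a6 ran from sham 1 week at 305 ± 50.3 CPM (SD, n = 5), SCI 6 weeks at 306 ± 25.3, SCI 3 weeks at 313 ± 10.6, SCI 12 weeks at 322 ± 21.3 and sham 12 weeks at 329 ± 9.66 to SCI 1 week at 334 ± 15.8. No step between neighbours in that order exceeded the larger of the 2 SDs, but ordering the means makes such steps small. Among groups that are not neighbours, SCI 1 week differed by more than the larger SD from SCI 6 weeks and from SCI 3 weeks. Sham 12 weeks did so from SCI 3 weeks. The lowest and highest group means differed 1.09-fold.

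Slc17a7 was counted only 3 to 54 times per library, and 545 times over all 30. Transcript lengths of the annotation were not used here, so its level is not set against that of the other genes per length. It stood at 0.988, 1.22, 1.07, 1.59 and 1.51 CPM in sham 1 week and at 0.423, 1.42, 1.18, 1.75 and 0.92 CPM in sham 12 weeks. Injured rats had 1.47, 1.86, 0.476, 1.12 and 0.819 CPM at 1 week, 1.64, 0.621, 0.921, 1.28 and 0.698 CPM at 3 weeks, 1.11, 1.29, 0.428, 0.825 and 0.479 CPM at 6 weeks, and 1.19, 0.368, 1.58, 2.12 and 1.36 CPM at 12 weeks. All 15 pairs of groups overlapped, again the usual outcome over all genes. SCI 12 weeks held both the lowest rat (replicate 2, with 3 counts) and the highest (replicate 4, with 31 counts).

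In order of their means of Slc17a7, the groups were SCI 6 weeks (0.827 ± 0.38 CPM, SD, n = 5), SCI 3 weeks (1.03 ± 0.426), sham 12 weeks (1.14 ± 0.503), SCI 1 week (1.15 ± 0.541), sham 1 week (1.27 ± 0.266) and SCI 12 weeks (1.32 ± 0.639). No neighbouring means differed by more than the larger SD, but those of SCI 6 weeks and sham 1 week did. At the mean count of this gene, counting alone gives a coefficient of variation of 23.5%, against 41.2% observed over the 30 rats, and the biological coefficient of variation fitted by edgeR was 31.9%. For Slc17a6 counting gave 1.43%, the observed value was 8.24% and the biological one 8.53%.

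**Figure D1:**
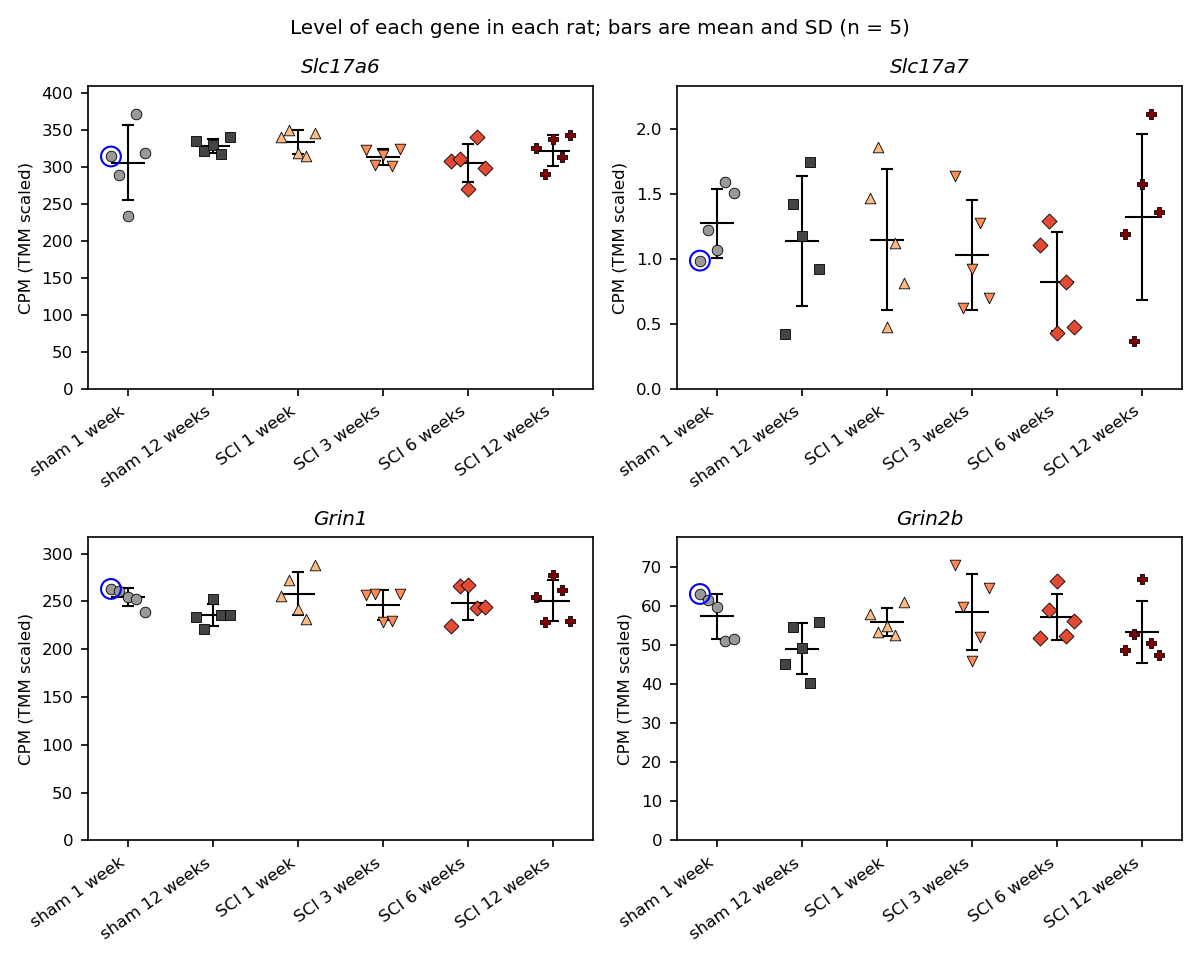
Level of Slc17a6, Slc17a7, Grin1 and Grin2b in CPM (vertical axes from 0) in each of the 30 rats, by group, with the mean and SD of 5 rats; the ring marks sham 1 week replicate 1, whose labels conflict. Slc17a6 lies between 233 and 372 CPM, Grin1 between 221 and 288, Grin2b between 40.2 and 70.4 and Slc17a7 between 0.368 and 2.12. All 15 pairs of groups overlap in each of the 4. In the pairs where all genes were counted, 0.946% to 3.51% of genes showed no overlap.

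Grin1, the subunit every NMDA receptor contains, was the steadiest of the 4 genes, with a coefficient of variation of 6.88% over the 30 rats. Sham rats had 263, 261, 255, 253 and 239 CPM at 1 week and 234, 221, 253, 236 and 236 CPM at 12 weeks. Injured rats had 256, 272, 242, 232 and 288 CPM at 1 week, 257, 258, 228, 230 and 258 CPM at 3 weeks, 224, 266, 267, 243 and 244 CPM at 6 weeks, and 255, 228, 278, 262 and 230 CPM at 12 weeks. The 12-week sham rats were mostly at the low end, with 4 of 5 below all 5 rats of sham 1 week.

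The group means of Grin1 were 236 ± 11.4 CPM in sham 12 weeks (SD, n = 5), 246 ± 15.8 in SCI 3 weeks, 249 ± 17.8 in SCI 6 weeks, 250 ± 21.5 in SCI 12 weeks, 254 ± 9.34 in sham 1 week and 258 ± 22.6 in SCI 1 week. Again no neighbouring means differed by more than the larger SD, but those of sham 12 weeks and sham 1 week did.

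Grin2b, one of the alternative partners of GluN1, was counted 326 to 2285 times per library. It stood at 63, 61.4, 59.8, 50.9 and 51.5 CPM in sham 1 week and at 45.2, 54.5, 49.2, 40.2 and 55.8 CPM in sham 12 weeks. Injured rats had 58, 53.2, 54.8, 52.5 and 61 CPM at 1 week, 70.4, 59.6, 45.8, 51.9 and 64.5 CPM at 3 weeks, 51.8, 58.8, 66.3, 52.2 and 56.2 CPM at 6 weeks, and 48.8, 52.7, 66.8, 50.6 and 47.4 CPM at 12 weeks. The lowest rat was a 12-week sham (replicate 4) and the highest an injured rat of 3 weeks (replicate 1).

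In order, the means of Grin2b were 49 ± 6.47 CPM in sham 12 weeks (SD, n = 5), 53.3 ± 7.82 in SCI 12 weeks, 55.9 ± 3.57 in SCI 1 week, 57.1 ± 5.92 in SCI 6 weeks, 57.3 ± 5.7 in sham 1 week and 58.4 ± 9.79 in SCI 3 weeks. The highest was 1.19-fold the lowest, and no neighbouring means differed by more than the larger SD. Sham 12 weeks did differ by more than that from SCI 1 week, SCI 6 weeks and sham 1 week.

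The first comparison asked whether these genes differed 1 week after injury from sham rats of the same week. Of the 4 genes 0 passed, against 0.358% of all genes tested (edgeR, adjusted p under 0.05). At an unadjusted p under 0.05 the count was also 0, against 13.9% of all genes, and DESeq2 and limma-voom called 0 of the 4 as well. The ranges of injured and sham rats overlapped in all 4 genes, where 3.51% of all genes showed no overlap.

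Slc17a6 had the largest difference relative to its error at 1 week, 0.129 ± 0.074 on the log2 scale (standard error, 95% interval -0.02 to 0.28, edgeR adjusted p = 0.448). This value rested on the spread of the sham rats. It was 0.042 without sham 1 week replicate 3, the lowest rat, and 0.206 without replicate 4, the highest (edgeR adjusted p = 0.847 and 0.261). Without replicate 4, Slc17a6 had an unadjusted p of 0.00602 (edgeR). With all rats kept, 13.9% of all genes had one under 0.05. Grin1 differed by 0.022 ± 0.063 (log2, standard error) and Grin2b by -0.037 ± 0.1, with edgeR adjusted p of 0.914 and 0.912. Slc17a7 differed by -0.127 ± 0.364, and its interval ran from 0.549-fold to 1.53-fold. Without sham 1 week replicate 1, whose labels conflict, the log2 fold changes were 0.138 for Slc17a6, -0.21 for Slc17a7, 0.034 for Grin1 and 0.00034 for Grin2b. Of the 4 genes 0 then passed, and over all genes 1 did.

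At 3 weeks injured rats were compared with the mean of both sham groups, because sham rats were taken only at 1 and 12 weeks. None of the 4 genes passed (0% of all genes did), and 0 of them had an unadjusted p under 0.05, against 7.11% of all genes (edgeR), with 0 called by DESeq2 and by limma-voom. Grin2b differed by 0.133 ± 0.089 (log2, standard error), a 1.1-fold level with an interval of 0.967 to 1.24 (edgeR adjusted p = 0.776). Single injured rats moved it, to 0.064 without SCI 3 weeks replicate 1 and to 0.21 without replicate 3 (edgeR adjusted p = 1 and 0.743). In the latter case Grin2b had an unadjusted p of 0.0239 (edgeR). With all rats kept, 7.11% of all genes had one under 0.05. The Grin2b mean of SCI 3 weeks, 58.4 CPM, was near that of sham 1 week (57.3) and above that of sham 12 weeks (49). Its value thus depends on the sham group, and neither was tested alone. Slc17a6 and Grin1 differed by -0.016 ± 0.064 and 0.0075 ± 0.055. Slc17a7 differed by -0.267 ± 0.34. Without sham 1 week replicate 1 the values were -0.011 for Slc17a6, -0.308 for Slc17a7, 0.014 for Grin1 and 0.152 for Grin2b.

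At 6 weeks, against the same sham rats, 0 of the 4 genes passed (0% of all genes), and 0 had an unadjusted p under 0.05, against 8.22% of all genes (edgeR), with 0 called by DESeq2 and by limma-voom. Slc17a7 had its lowest mean here and a log2 fold change of -0.618 ± 0.376, or 0.652-fold with an interval of 0.384 to 1.11 (edgeR adjusted p = 0.674). The 5 libraries behind it held 7, 9, 5, 10 and 5 counts of this gene. Slc17a6 differed by -0.053 ± 0.065, Grin1 by 0.023 ± 0.055 and Grin2b by 0.109 ± 0.091 on the log2 scale. The value of Grin2b was 0.047 without SCI 6 weeks replicate 3, and that of Slc17a6 was -0.01 without the same rat. The Grin2b mean of SCI 6 weeks, 57.1 CPM, was also near that of sham 1 week (57.3) and above that of sham 12 weeks (49). Without sham 1 week replicate 1 the values were -0.05 for Slc17a6, -0.66 for Slc17a7, 0.027 for Grin1 and 0.125 for Grin2b.

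At 12 weeks the sham rats of that week were the reference. Of the 4 genes 0 passed (0% of all genes), and 0 had an unadjusted p under 0.05, against 5.3% of all genes (edgeR), with 0 called by DESeq2 and by limma-voom. The groups overlapped in all 4 genes, where 0.946% of all genes showed no overlap. Both receptor subunits had a mean above that of the sham rats, Grin1 by 0.087 ± 0.063 and Grin2b by 0.123 ± 0.104 (log2, standard error, edgeR adjusted p = 0.912 and 0.92). These are 1.06-fold and 1.09-fold, with intervals of 0.972 to 1.16 and 0.941 to 1.26. Sham 12 weeks had the lowest mean of the 6 groups in both genes. The means of SCI 12 weeks, 250 CPM for Grin1 and 53.3 CPM for Grin2b, lay below those of sham 1 week (254 and 57.3 CPM). SCI 12 weeks replicate 3 was the highest of its group in both genes. The log2 fold change of Grin2b rested largely on this 1 rat, and that of Grin1 in part. Without it they were 0.046 for Grin1 and 0.021 for Grin2b, and without sham 12 weeks replicate 4, the lowest rat in Grin2b, that gene's value was 0.062. Slc17a6 differed by -0.029 ± 0.074. Slc17a7 differed by 0.26 ± 0.369, with 0.064 without SCI 12 weeks replicate 4 and 0.45 without sham 12 weeks replicate 4.

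Pooling all injured against both sham groups gave the narrowest intervals. Of the 4 genes 0 passed (0% of all genes), and 0 had an unadjusted p under 0.05, against 13% of all genes (edgeR), with 0 called by DESeq2 and by limma-voom. The fold change lay between 0.943 and 1.07 for Slc17a6, between 0.97 and 1.08 for Grin1, between 0.968 and 1.16 for Grin2b and between 0.634 and 1.22 for Slc17a7 (95% intervals). On the log2 scale the values were 0.0078, 0.035, 0.082 and -0.188 in that order, and 0.012, 0.041, 0.1 and -0.229 without sham 1 week replicate 1. The comparisons at 3 weeks, at 6 weeks and of all injured rats use the same 10 sham rats, which also serve at 1 and 12 weeks.

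**Figure D2:**
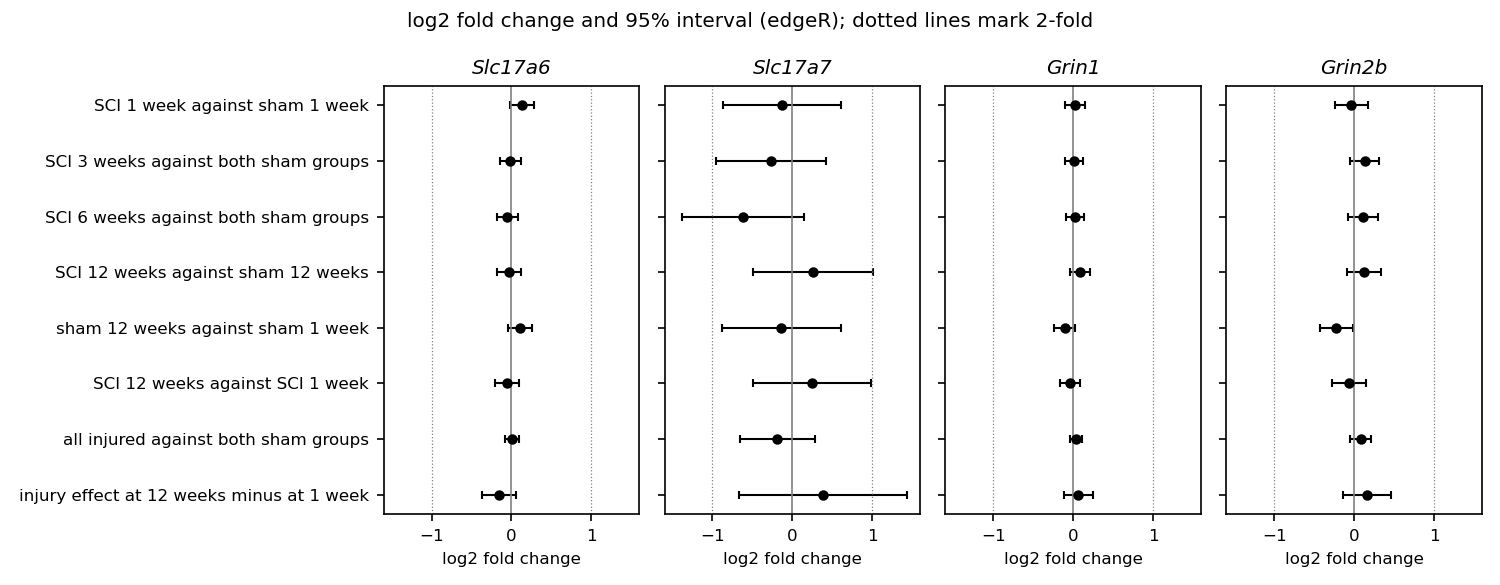
Log2 fold change of each gene (horizontal axes) in 8 comparisons, with the 95% interval from edgeR; dotted lines mark 2-fold. The intervals of Slc17a6, Grin1 and Grin2b are narrow and those of Slc17a7 wide. Grin2b in sham 12 weeks against sham 1 week is the one whose interval leaves out 0, at -0.43 to -0.01. In that comparison 8.24% of all genes had an unadjusted p under 0.05 (edgeR).

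The sham groups alone showed how the 4 genes stood at 12 weeks and at 1 week with no injury. Here too 0 of the 4 genes passed (0% of all genes, edgeR), but 1 of the 4, Grin2b, had an unadjusted p under 0.05, against 8.24% of all genes. Limma-voom called 0 of the 4, and DESeq2 called 0 of the 3 to which it gave an adjusted p, which left out Slc17a7. Grin2b was -0.224 ± 0.103 on the log2 scale in the later sham group (standard error, edgeR adjusted p = 0.572, unadjusted exact permutation p = 0.0635), or 0.856-fold with an interval of 0.741 to 0.99. Grin1 had the same sign, at -0.109 ± 0.063 (edgeR adjusted p = 0.686). For Grin1 the exact two-sided permutation test of log2 CPM gave p = 0.0159, unadjusted, over 252 splits whose smallest p is 0.00794. It was the smallest p of all permutation tests of the 4 genes. These tests were not run over all genes, nor without sham 1 week replicate 1. Without sham 1 week replicate 1, whose labels conflict, the differences were -0.19 for Grin2b, -0.099 for Grin1, 0.113 for Slc17a6 and -0.225 for Slc17a7 (edgeR adjusted p = 0.747, 0.807, 0.821 and 0.951). Grin2b then lost its unadjusted p under 0.05, at 0.0885 (edgeR), and the other genes gained none. Grin2b also lost its unadjusted p under 0.05 without sham 1 week replicate 2 or 3 and without sham 12 weeks replicate 1 or 4, where its value ran from -0.207 to -0.165. Grin1 gained one without sham 12 weeks replicate 3, at -0.14. The groups overlapped in all 4 genes, where 2.17% of all genes showed no overlap. Slc17a6 differed by 0.107 ± 0.074 and Slc17a7 by -0.14 ± 0.368. The value of Slc17a6 was 0.023 without sham 1 week replicate 3 and 0.189 without replicate 4, in the latter case with an unadjusted p under 0.05.

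Time after injury was read from SCI 12 weeks against SCI 1 week, where 0 of the 4 genes passed, against 0.0811% of all genes (edgeR). At an unadjusted p under 0.05 the count was 0, against 11% of all genes, limma-voom called 0, DESeq2 called 0 of the 3 other than Slc17a7, to which it gave no adjusted p, and the groups overlapped in all 4 genes (2.15% of all genes showed no overlap). The log2 fold changes were -0.052 ± 0.074 for Slc17a6, 0.247 ± 0.365 for Slc17a7, -0.044 ± 0.063 for Grin1 and -0.064 ± 0.103 for Grin2b (standard error). Without SCI 12 weeks replicate 3 they were -0.085 for Grin1 and -0.166 for Grin2b. That of Slc17a7 ran from 0.044 to 0.494 with 1 library left out in turn. In the joint test among the 4 injured groups 0 of the 4 passed, against 0.0338% of all genes, and 0 had an unadjusted p under 0.05, against 7.14% (edgeR, adjusted p from 0.838 to 0.954), with 0 called by DESeq2 and by limma-voom.

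Whether the effect of injury differed between 12 weeks and 1 week was tested as an interaction. Of the 4 genes 0 passed (0% of all genes), and 0 had an unadjusted p under 0.05, against 8.38% of all genes (edgeR), with 0 called by limma-voom and, of the 3 other than Slc17a7, by DESeq2. Without sham 1 week replicate 1, 0 of the 4 passed, and over all genes 1 did (edgeR, adjusted p under 0.05). The difference between the effects was -0.158 ± 0.105 for Slc17a6, 0.065 ± 0.089 for Grin1, 0.16 ± 0.146 for Grin2b and 0.387 ± 0.518 for Slc17a7 (log2, standard error, edgeR adjusted p from 0.725 to 0.905). Without that library it was -0.166, 0.054, 0.124 and 0.471 in the same order. For Slc17a6 it was -0.072 without sham 1 week replicate 3 and -0.238 without replicate 4 (edgeR adjusted p = 0.916 and 0.583), with an unadjusted p under 0.05 in the latter case. For Grin2b it was 0.057 without SCI 12 weeks replicate 3.

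The make-up of the receptor transcripts was described by the ratio of Grin2b to Grin1 counts within each library, which needs no scaling between libraries. Over all 30 rats there were 22.1 ± 2.22 counts of Grin2b (SD, n = 30) for each 100 of Grin1, with a range of 17.1 to 27.4. The group means ran from 20.8 ± 3.2 in sham 12 weeks (SD, n = 5) through 21.3 ± 2.24 in SCI 12 weeks, 21.7 ± 1.37 in SCI 1 week, 22.5 ± 1.64 in sham 1 week and 22.9 ± 1.28 in SCI 6 weeks to 23.6 ± 2.73 in SCI 3 weeks. Because the transcripts' lengths are not taken into account, these are ratios of counts and not of molecules, and only their variation between rats is read. The steps between groups were smaller than their SDs.

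For the transporters the same ratio was 0.352 ± 0.14 counts of Slc17a7 for each 100 of Slc17a6 (SD, n = 30), with a range of 0.126 to 0.677. Sham 1 week was the tightest group, at 0.419 ± 0.062 (SD, n = 5), with 0.315, 0.422, 0.457, 0.428 and 0.472 in its 5 rats. SCI 6 weeks had the lowest mean, at 0.268 ± 0.117, with 0.362, 0.415, 0.159, 0.242 and 0.16. The ranges of these 2 groups overlapped. The libraries held 22, 13, 39, 28 and 33 counts of Slc17a7 in sham 1 week and 7, 9, 5, 10 and 5 in SCI 6 weeks. Counting error is relatively larger at fewer counts, and its part in these ratios was not tested.

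**Figure D3:**
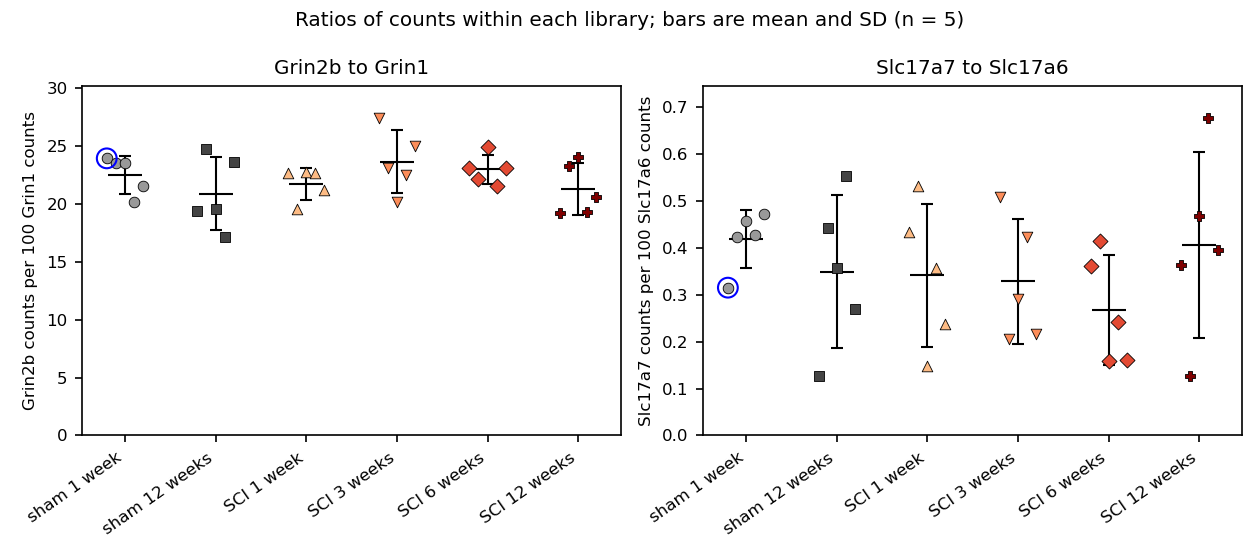
Counts of Grin2b per 100 counts of Grin1 (left) and of Slc17a7 per 100 counts of Slc17a6 (right) in each library, by group, with the mean and SD of 5 rats; the ring marks sham 1 week replicate 1. The receptor ratio stays between 17.1 and 27.4 in all 30 rats, and the transporter ratio between 0.126 and 0.677.

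The 4 genes were then compared with each other across rats, as log2 CPM, in all 6 pairs. Grin1 and Grin2b varied together, at r = 0.601 (Pearson) and rho = 0.631 (Spearman) over 30 rats (permutation test with 100000 permutations, p = 0.00033 and 0.0002, Benjamini-Hochberg adjusted over 6 pairs 0.00198 and 0.0012). Rats with more Grin1, such as SCI 12 weeks replicate 3 with 278 CPM, tended to have more Grin2b, in that rat 66.8 CPM. With each group's mean subtracted, so that only differences between rats of the same group count, r was 0.577 (permutation within groups, p = 0.0012, adjusted p = 0.0072). Without the 2 rats farthest from the median of Grin1, SCI 1 week replicate 5 and sham 12 weeks replicate 2, r was 0.632 (permutation p = 0.00032).

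Within single groups of 5 rats, given as a description, r of Grin1 with Grin2b was 0.805 for the sham rats of 1 week and -0.227 for those of 12 weeks. For the injured rats it was 0.672 at 1 week, 0.908 at 3 weeks, 0.846 at 6 weeks and 0.648 at 12 weeks. It was thus above 0 in 5 of the 6 groups. The values share a library in each rat, and the log2 library total had an r of 0.129 with Grin1 and 0.021 with Grin2b. With the library total regressed out, r of the pair was 0.604, and without sham 1 week replicate 1 it was 0.588. Dissection, cell composition and RNA quality of each rat were not measured in these files, and their part in the correlation was not tested.

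**Figure D4:**
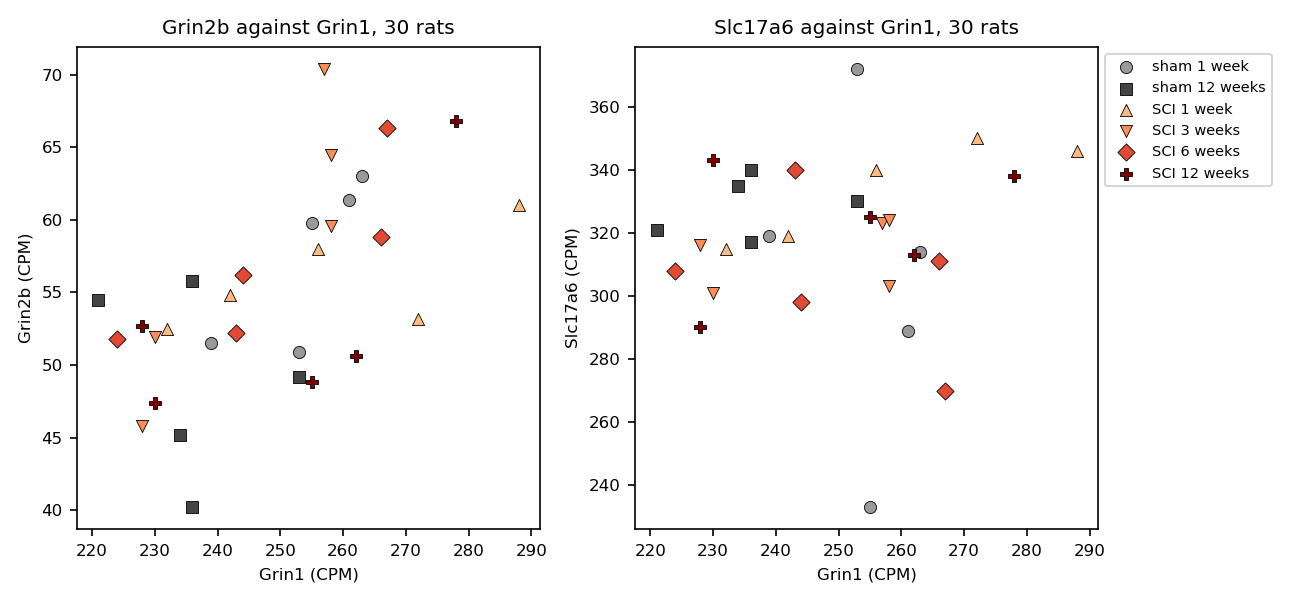
Level of Grin2b against Grin1 (left) and of Slc17a6 against Grin1 (right), in CPM, with 1 point per rat and the group by colour and marker; the axes do not start at 0. Grin2b climbs with Grin1 (r = 0.601 on log2 CPM), and r of Slc17a6 with Grin1 is 0.05.

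Slc17a6, the transporter of the cord's own excitatory neurons, passed the test with neither receptor subunit. It had an r of 0.05 and a rho of 0.081 with Grin1 (permutation p = 0.796 and 0.67) and an r of -0.247 and a rho of -0.216 with Grin2b (permutation p = 0.189 and 0.251, adjusted p = 0.378 and 0.502 over 6 pairs). Without SCI 6 weeks replicate 3 and sham 1 week replicate 3, the 2 rats farthest from the median of Slc17a6, these r values were 0.268 and -0.087 (permutation p = 0.169 and 0.663). Within single groups, as a description, r of Slc17a6 was above 0 in 4 of the 6 with each subunit, and ran from -0.425 in SCI 6 weeks to 0.916 in SCI 1 week with Grin1 and from -0.833 in SCI 6 weeks to 0.491 in SCI 1 week with Grin2b. The 2 transporters had an r of 0.304 and a rho of 0.298 with each other (permutation p = 0.103 and 0.109, adjusted p = 0.309 and 0.328), and an r of 0.309 without the same 2 rats. With group means subtracted, r of this pair was 0.329, under the threshold unadjusted but not after adjustment over 6 pairs (permutation within groups, p = 0.0266, adjusted p = 0.0799), and it was above 0 in 5 of the 6 groups. The 2 subtracted values of Slc17a6 were 0.096 with Grin1 and -0.157 with Grin2b (permutation p = 0.567 and 0.405).

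Slc17a7 had an r of 0.15 and a rho of 0.146 with Grin1 (permutation p = 0.43 and 0.437) and an r of -0.125 and a rho of -0.167 with Grin2b (permutation p = 0.51 and 0.379). The r values were -0.0074 and -0.301 without SCI 12 weeks replicate 2 and sham 12 weeks replicate 1. With a median of 14 counts per library, nothing is read from the weak correlations of this gene, that with Slc17a6 included.

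As a background, every tested gene was correlated with each of the 4 over the 30 rats, with group means subtracted. Among 14800 other genes the median r with Grin1 was 0.0033, and 95% lay between -0.51 and 0.547. Grin2b, at 0.577, was exceeded by 265 genes, or 1.79% of them. Seen from Grin2b, Grin1 was exceeded by 343 genes, or 2.32%. With the sign set aside, 2.82% of genes had a larger absolute r with Grin1 and 3.26% with Grin2b. The receptor pair is therefore high in both distributions without being the closest pair. Genes are not independent of each other, and these shares are a description.

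Seen from Slc17a6, Grin1 at 0.096 was exceeded by 34.4% of genes and Grin2b at -0.157 by 75.3%, both in the broad middle of the distribution. Slc17a7 at 0.329 was exceeded by 7.59%. The genes most like each of the 4 over the 30 rats were ENSRNOG00000045844 for Slc17a6 (r = 0.805), ENSRNOG00000048292 for Slc17a7 (r = 0.689), ENSRNOG00000000487 for Grin1 (r = 0.812) and ENSRNOG00000033942 for Grin2b (r = 0.8), all with group means subtracted. They are given by identifier because no table used here names them.

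**Figure D5:**
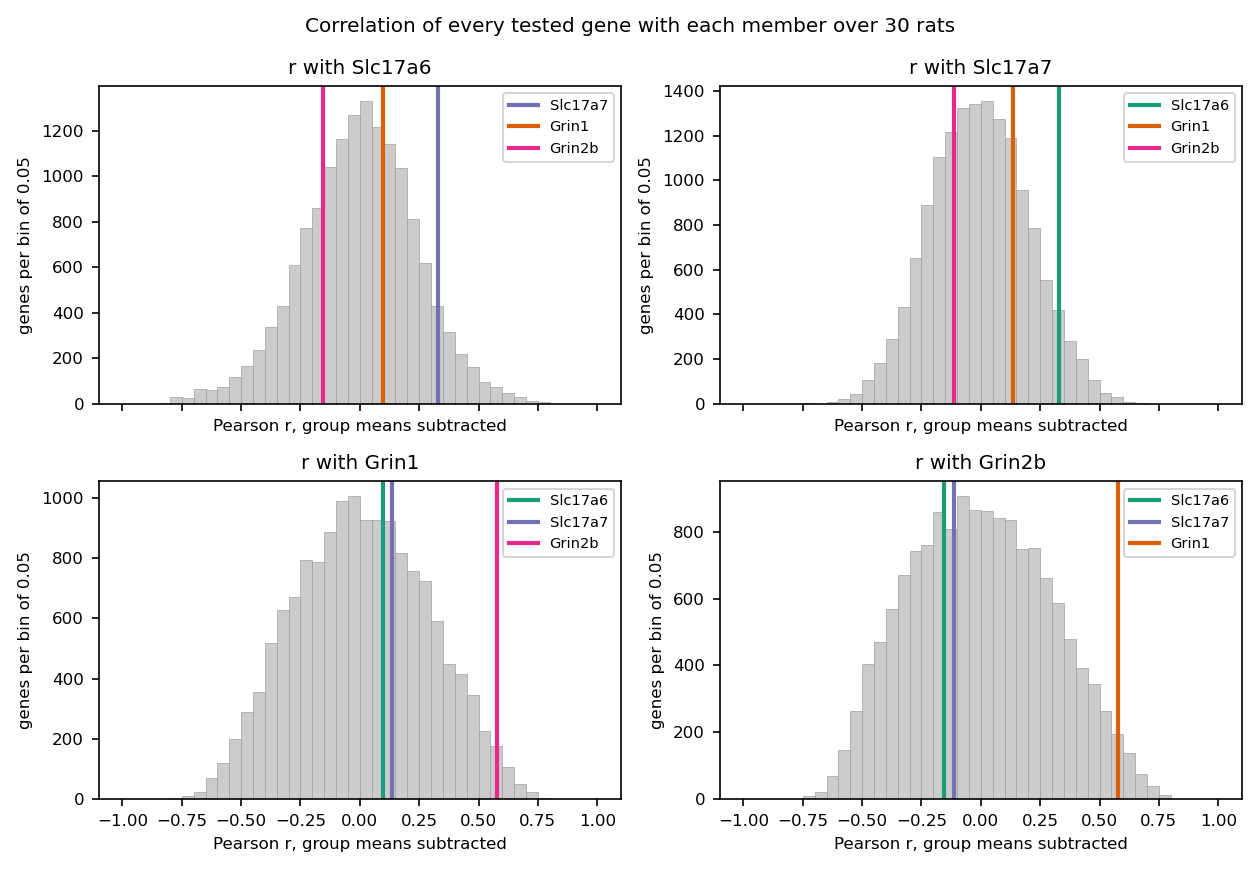
Number of genes (vertical axes) by their Pearson r with Slc17a6, Slc17a7, Grin1 and Grin2b over 30 rats, with group means subtracted, in bins of 0.05; coloured lines mark the other 3 genes. Grin1 and Grin2b lie at 0.577 on the upper flank of each other's distribution, while both lie near the middle of that of Slc17a6, at 0.096 and -0.157.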

How the data were processed

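Per the labels' protocols, total RNA of 30 rats went through ribosomal depletion and a stranded library kit. Each library has 1 table, in which the authors deposited whole-number counts by Ensembl identifier. The tools named, per the submitters' processing notes, are STAR 2.5.3a, featureCounts, Subread 1.2.6, Trimmomatic and bcl2fastq 2.19.05, and the genome build is Rnor_6.0. For the annotation release and the strand setting of counting the sources used here give nothing. Whether reads of genes that overlap on opposite strands were told apart is therefore not known.

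The counts entered edgeR 4.0.16 (R 4.3.3) unchanged, with TMM scaling, filterByExpr by group and 1 robust quasi-likelihood model over the 6 groups. The 14801 kept genes hold 99.941% of all counts. Adjusted p values are over all kept genes. Standard errors were derived from the F statistic. Log2 CPM used a prior count of 2. Correlations used numpy 2.4.6 and scipy 1.17.1. The fit and the permutation tests were checked on simulated data. DESeq2 1.42.0 and limma-voom (limma 3.58.1) were alternatives.

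Time, sham state and injury were compared as in the report, with exact permutation tests of single genes as an alternative. The 4 genes and all lists were chosen with earlier results of these data known. The genes named were to be the 4, the gene most like each by within-group r, and members of lists of glutamate genes; those lists and the marker lists were not run, since 0 of 32545 identifiers matched the reference table (assembly GRCr8). Each library is 1 rat. The labels state no link between rats of the same number in 2 groups, and their deviations from the group means correlated from -0.153 to 0.146 over 75 pairs, so the numbers were not taken to pair them.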

Additional observations from a re-analysis of the deposited data

Results flagged for a closer look

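Sets of 5 rats were searched for a single rat far from the rest of its group, in the levels of the 4 genes and in 3 ratios of counts. There were 42 sets and 2 held such a rat. A rate of 1 in 20, the one chance gives, would yield 2.1. The gap to the nearest other rat had to exceed 0.71 of the range of the group.

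Grin2b in SCI 12 weeks replicate 3 stood at 66.8 CPM, with the next rat of its group at 52.7 CPM, a gap of 0.725 of the range. This is also the deepest library of its group.

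The log2 ratio of Slc17a7 to Slc17a6 counts in sham 1 week replicate 1 was -8.31, with the next rat at -7.89, a gap of 0.72 of the range. It rests on 22 counts of Slc17a7, and this is the library whose labels conflict.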

How the results depend on the processing

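No adjusted p of the 4 genes passed in any comparison under the alternatives run: DESeq2 size factors, no filter, a filter at 1 CPM in 5 libraries, DESeq2, limma-voom, a replicate block, log2 library total as a covariate, only the compared groups in the fit, sham 1 week replicate 1 counted as injured, and each of 30 libraries left out in turn. DESeq2 gave Slc17a7 no adjusted p in 3 comparisons. For all injured against both sham groups the compared groups are all 6, so that fit was not run apart. With the replicate block 54 genes over the whole table passed at 1 week against 53 without it, and 0 of the 4. Over all genes at 1 week DESeq2 called 217, limma-voom 164, the fit with library total 2, and the fit with sham 1 week replicate 1 as injured 0; it was 1 without that library, and 0 to 128 over all left-out libraries. For SCI 12 weeks against SCI 1 week (12 genes) DESeq2 called 65, limma-voom 20, the fit with sham 1 week replicate 1 as injured 4, and 0 to 17 passed with 1 library left out. For the joint test (5 genes) DESeq2 called 30, the block 3, the fit with that library as injured 0, and 0 to 9 passed with 1 library left out. In the other comparisons, with 0 in edgeR, DESeq2 called 0 to 24, limma-voom 0 to 3 and the block 0 to 1.

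Direction changed for fold changes smaller than their standard error and for 2 weak correlations. Counting sham 1 week replicate 1 as injured made Grin2b at 1 week 0.032, Slc17a6 in all injured rats was -0.00094 with library total as a covariate, and r of Slc17a7 with Grin1 was -0.0074 without the 2 farthest rats. With 1 library left out the log2 fold change at 1 week ran from -0.379 to 0.071 for Slc17a7, -0.023 to 0.054 for Grin1 and -0.079 to 0.00034 for Grin2b. At 3 weeks it ran from -0.058 to 0.021 for Slc17a6 and -0.014 to 0.034 for Grin1, and at 6 weeks from -0.00301 to 0.056 for Grin1. Slc17a6 ran from -0.053 to 0.0065 at 12 weeks and from -0.035 to 0.044 in all injured rats, Slc17a7 from -0.336 to 0.049 between sham groups, and Grin1 from -0.085 to 0.00051 in SCI 12 weeks against SCI 1 week. The r of Slc17a6 with Grin1 ran from -0.029 to 0.13. The causes were not tested. The r of Grin1 with Grin2b kept its call, from 0.562 to 0.633 with 1 library left out and from 0.577 to 0.632 under the other alternatives (largest adjusted p 0.0103). Of the permutation tests of the 4 genes, only that of Grin1 between sham groups (difference -0.109, p = 0.0159) passed unadjusted, where edgeR did not. Of the 4 genes, counting error is largest for Slc17a7, with 3 to 54 counts per library.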
